A study of Homo sapiens with 9 samples.

Results

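The 9 genes described here are the inhibitors of DNA binding ID1, ID2, ID3 and ID4 and a set of genes of bone morphogenetic protein (BMP) signalling: the ligand BMP4, the receptor BMPR2, the inhibitory SMAD proteins SMAD6 and SMAD7, and the pseudoreceptor BAMBI. They were chosen by name, and every probe set that the probe annotation assigned to 1 of these symbols alone was taken, which gave 23 probe sets for 9 of the 18132 genes with such a probe set. The list was drawn up with expression results of these same arrays known, so the values of the 9 genes are given as a description, with no p-value. The arrays measured RNA of HCCC-9810, an established human cholangiocarcinoma (bile duct cancer) cell line, in 3 groups of 3 biological replicates. The first group received siRNAs against BAP1, a ubiquitin hydrolase that acts on histone H2A (si-BAP1), and another siRNAs against MBD5, a methyl-CpG-binding domain protein (si-MBD5). The third group was the control, named si-Control in the sample titles and control shRNA elsewhere in the labels, and which of these was used is not settled. All 9 samples come from 1 line, and the dose and duration of transfection are not given in the sources used here. What any p-value measures is therefore the spread between replicates of this line.

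BMP ligands bind receptors of type I and type II, and the activated type I receptor phosphorylates SMAD1, SMAD5 and SMAD9, which enter the nucleus with SMAD4. The ID genes are among the most direct targets of these SMADs. ID proteins have a helix-loop-helix but no DNA-binding region, so they capture E proteins such as TCF3 and keep them from DNA. SMAD6, SMAD7 and BAMBI are feedback inhibitors, themselves often induced by BMP or TGF-beta signalling.

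The array medians lay between 36.9 and 38.2 in deposited intensity. The correlation between 2 arrays was 0.997 to 0.999 within a group and 0.993 to 0.997 across groups. The arrays did not check either knockdown: BAP1 RNA is not analysed here, and both MBD5 probe sets lay far below the filter on dim probe sets (an intensity of 25.5). The brighter MBD5 probe set read 6.11 to 6.20 in si-MBD5 and 6.90 to 7.16 in si-Control, and on the dimmer one the si-MBD5 arrays (2.24 to 2.38) lay inside the control range (1.98 to 2.68). Of 11 bile duct epithelial markers on the arrays, 7 lay above that filter, KRT7, KRT8, KRT18, MUC1 and SOX9 among them, while KRT19, EPCAM, CFTR and SPP1 lay below it. None of 4 immune markers (highest at the 17.1th percentile), 3 of 6 hepatocyte, 3 of 4 endothelial and 2 of 6 fibroblast markers lay above it. Of the 2 fibroblast markers, PDGFRB rose by 0.16 in si-BAP1 (limma adjusted p = 0.0406) and 0.24 in si-MBD5 (limma adjusted p = 0.0063) on the log2 scale, and COL1A1 gave 0.015 and -0.0049 and did not pass. Of the 7 bile duct markers, KRT7 fell in both knockdowns (-0.15 and -0.19, limma adjusted p = 0.0236 and 0.0113). KRT8 rose (0.31, limma adjusted p = 0.000229) and CLDN4 fell (-0.33, limma adjusted p = 0.00185) in si-BAP1, and ANXA4 rose in si-MBD5 (0.13, limma adjusted p = 0.0327). The hepatocyte and endothelial markers passed in neither knockdown. The ratio of 3' to 5' signal of ACTB, a measure of RNA integrity, was 10.8 to 11.4 in si-BAP1, 11.8 to 12.8 in si-Control and 11.6 to 13.0 in si-MBD5. The same ratio of GAPDH was 1.070 to 1.092 in si-BAP1, 1.032 to 1.084 in si-Control and 1.066 to 1.074 in si-MBD5, so its groups overlapped. The part of cell makeup or of RNA integrity in the results was not tested. In RNA from whole cultures, fewer cells of a type and less RNA per cell cannot be told apart.

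The sequences before the transcription start of ID1, ID3 and BMPR2 are shown because these are the 3 genes of the set with the largest values in si-BAP1 relative to both other groups. Each line gives the 250 bases before the start, 5' to 3' on the gene's strand, from RefSeq (GRCh38.p14); all 9 genes matched that table. ID1 lies at chr20:31605039-31605288 (plus strand), ID3 at chr1:23559502-23559751 (minus strand) and BMPR2 at chr2:202376077-202376326 (plus strand). Capitals mark the letters TATAA wherever they stand on either strand, the letters CCAAT likewise, and also GGCGCC, a GC-rich string bound by BMP SMADs.
ID1: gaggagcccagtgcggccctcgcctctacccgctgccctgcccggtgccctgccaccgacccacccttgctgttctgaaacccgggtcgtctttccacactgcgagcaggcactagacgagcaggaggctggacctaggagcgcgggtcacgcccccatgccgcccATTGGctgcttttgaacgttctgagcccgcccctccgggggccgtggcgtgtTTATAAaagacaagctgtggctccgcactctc
ID3: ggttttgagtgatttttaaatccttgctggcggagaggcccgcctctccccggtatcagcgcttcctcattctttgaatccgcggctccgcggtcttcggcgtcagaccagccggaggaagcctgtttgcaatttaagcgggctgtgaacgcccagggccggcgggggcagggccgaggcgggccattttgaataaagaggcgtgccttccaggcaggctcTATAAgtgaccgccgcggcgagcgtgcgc
BMPR2: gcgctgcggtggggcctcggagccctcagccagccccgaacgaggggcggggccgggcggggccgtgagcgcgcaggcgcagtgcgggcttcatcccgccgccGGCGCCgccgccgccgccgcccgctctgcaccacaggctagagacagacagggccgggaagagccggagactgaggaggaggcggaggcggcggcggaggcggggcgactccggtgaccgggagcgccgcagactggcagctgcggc
The ID1 and ID3 windows held TATAA close to the start, 31 and 29 bases before it, and the ID1 string also reads TATAA on the minus strand at 32 bases. ID1 also had CCAAT on the minus strand 84 bases before the start. The BMPR2 window had neither, but held GGCGCC 147 bases before the start, and its GC content was 79.2%, against 66.0% for ID1 and 62.0% for ID3. The ID4 window likewise had TATAA 29 bases before the start, although ID4 was barely detected, and the ID2 window had CCAAT at 3 places. Outside the ID genes, TATAA also stood in a window of SMAD7 (35 bases before a start) and of BMP4 (28 bases before, minus strand). None of the 4 ID windows held GGCGCC. Of the 9 genes, 3 had it in a window: BMPR2, BMP4 (232 bases before a start) and BAMBI (209, 196 and 181 bases before). BAMBI differed from control by only 0.05 in si-BAP1 and -0.01 in si-MBD5 on the log2 scale. Over 35116 RefSeq windows of the same length, 18.9% held the first of these strings (TATAA), 32% held the CCAAT string, and 16.4% held the GC-rich one. A match describes letters only, and their absence from these windows says nothing of SMAD binding elsewhere.

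Values below are deposited intensities, given per array in the order of replicates 1, 2 and 3, with means ± SD (n = 3). Differences are of group means of log2(intensity + 16) with the standard error (SE) of the limma fit, and the folds derived from them are smaller than the ratio of raw intensities because of the added 16. Each gene is read first from its brightest probe set. For ID1, ID2, ID3 and ID4 that probe set is of a type that can bind several transcripts (_x_at). ID2 and ID4 had no other probe set above the filter, so their values may not be specific to the gene. Levels of different genes are not compared, since probe sets differ in brightness. All 9 genes had at least 1 probe set above the filter (17 of the 23 probe sets passed), ID4 only just.

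ID1 was highest in si-BAP1 and lowest in si-MBD5 on all 3 of its probe sets. Its probe set read 140.5, 145 and 146 in si-Control, 163, 169 and 171 in si-BAP1, and 109, 116 and 122 in si-MBD5. The si-BAP1 arrays were the highest, the si-MBD5 arrays the lowest, and no group overlapped another. Group means were 144 ± 2.94, 168 ± 4.12 and 115 ± 6.83. ID1 differed from control by 0.20 in si-BAP1 and by -0.28 in si-MBD5 on the log2 scale (SE 0.047 each), or 1.15-fold and 0.822-fold. Between the knockdowns the difference was 0.48 (1.40-fold), at the 99.5th percentile of absolute differences over all genes. The other 2 ID1 probe sets had the same order of groups with no overlap, at 0.20 and 0.11 for si-BAP1 and -0.30 and -0.30 for si-MBD5. The dimmest, at 0.11 in si-BAP1, did not pass the threshold over all probe sets there. Its lowest si-BAP1 array (67.9) lay just above the highest control array (66.4).

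ID3 was higher in si-BAP1 than in either other group. It read 369, 337 and 364 in si-Control, 525, 575 and 533 in si-BAP1, and 365, 379 and 405 in si-MBD5. Every si-BAP1 array lay above all 6 others, whereas si-MBD5 and control arrays overlapped. The means were 357 ± 17.3, 544 ± 26.6 and 383 ± 20.5, giving 0.59 in si-BAP1 (SE 0.051) and 0.10 in si-MBD5. The absolute difference in si-BAP1 stood at the 99.2th percentile of all genes. The other ID3 probe sets gave 0.64 and 0.54 in si-BAP1, again with all si-BAP1 arrays above the rest. On the first of these the si-MBD5 arrays (347 to 370.2) also lay wholly above control (320.5 to 334), by 0.11, and on the second they overlapped it (0.05). ID1 and ID3 thus stood in different orders: both were highest in si-BAP1, but only ID1 was lower in si-MBD5 than in control without overlap.

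ID2 was dimmer and its groups lay closer together. Its arrays read 45.2, 46.5 and 52.8 in si-Control, 47.1, 54.5 and 48.5 in si-BAP1, and 40.9, 45.6 and 39.7 in si-MBD5. The si-BAP1 and si-MBD5 arrays did not overlap, but the control arrays overlapped both. The differences were 0.04 in si-BAP1 and -0.14 in si-MBD5 (SE 0.063 each). A second ID2 probe set lay below the filter.

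ID4 was at the edge of detection. Its brightest probe set read 26.4, 24.6 and 27.5 in si-Control, 28.5, 27.5 and 27.5 in si-BAP1, and 29.6, 27.5 and 31.2 in si-MBD5, and each group shared the value 27.5 with the others. The mean of 27.8 compares with a filter at 25.5, and the other 3 ID4 probe sets lay between the 2.55th and 6.26th percentile of all probe sets. No order of groups is read from these values.

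**Figure D1:**
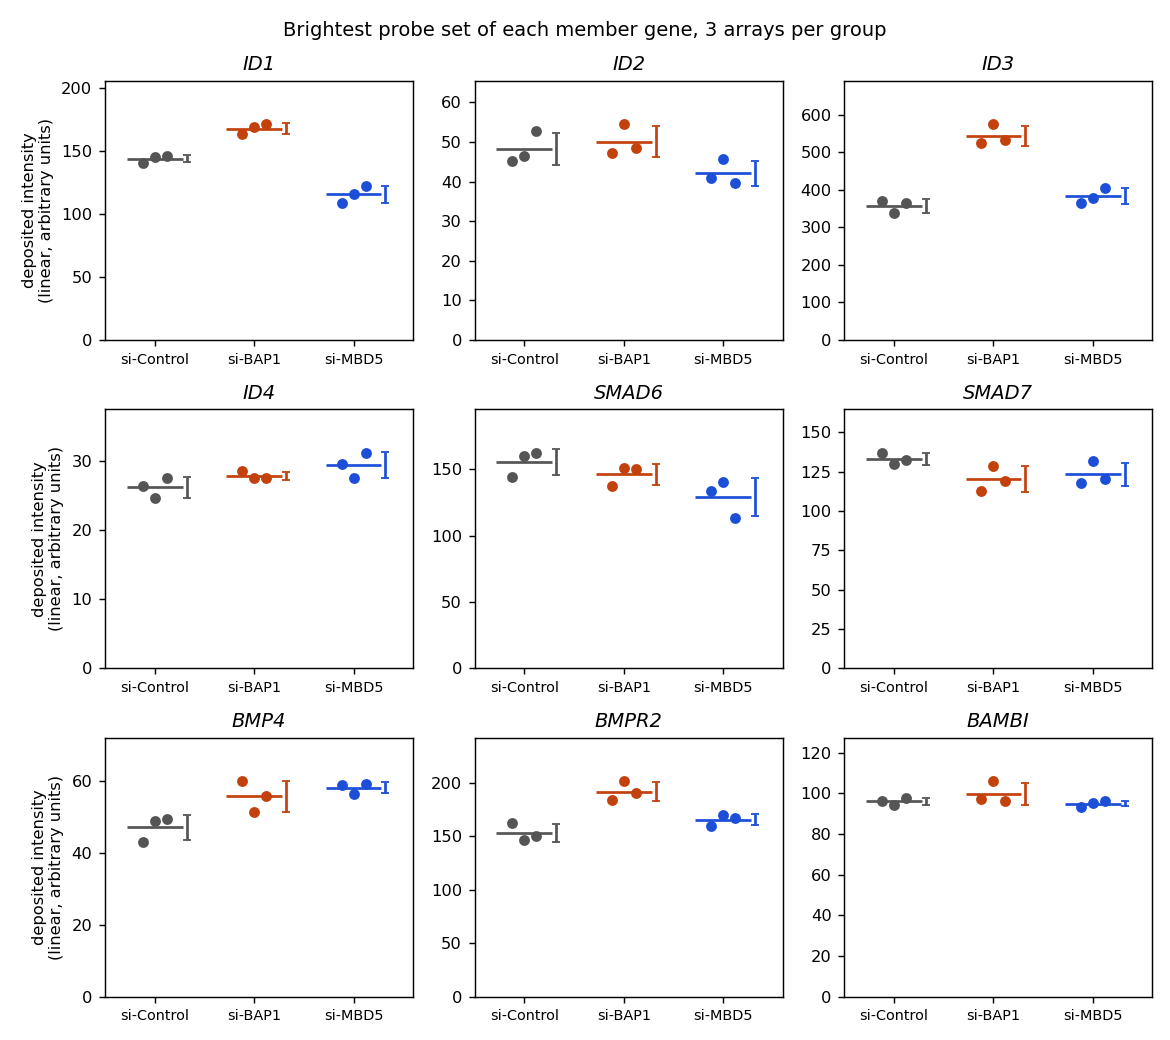
Deposited intensity (vertical axis, from 0) of the brightest probe set of each of the 9 genes in the 3 groups; points are arrays, the line is the mean of 3 and the bar to its right is ± SD. ID3 in si-BAP1 (525 to 575) lies above every other array, and ID1 forms 3 levels, at 109 to 122, 140.5 to 146 and 163 to 171.

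Among the upstream genes, BMPR2, the type II receptor that takes up BMP ligands, was higher in si-BAP1. It read 162, 146 and 150.4 in si-Control, 184, 201 and 190.0 in si-BAP1, and 159.5, 169 and 167 in si-MBD5. On this probe set the si-BAP1 arrays lay above the other 6, and the si-MBD5 arrays overlapped control. The differences were 0.30 in si-BAP1 (SE 0.050, 1.23-fold) and 0.10 in si-MBD5 (1.07-fold). A dimmer probe set, with 92.0, 97.6 and 102 in control and 147, 142 and 142 in si-BAP1, gave a larger difference of 0.50, and 0.14 in si-MBD5. On the third the difference was 0.27, with the lowest si-BAP1 array just under the highest control array, and 0.20 in si-MBD5. On both dimmer probe sets the si-MBD5 arrays lay wholly above control (104 to 116, and 65.9 to 71.2 on the third against 49.98 to 65.5). Over the mean of its probe sets BMPR2 was 0.15 higher in si-MBD5 and passed the whole-table threshold there too. On the third probe set the knockdowns differed by 0.07 and overlapped. BMPR2 and ID3 correlated across the 9 arrays (Pearson r = 0.95, a description over arrays that share group differences). That pair is named because it had the highest correlation among all pairs of the 9 genes. BMPR2 with ID1 gave 0.53, and BMP4 with SMAD7 gave -0.85.

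BMP4, a secreted ligand, was higher in both knockdowns. Its only probe set read 43.2, 48.9 and 49.4 in si-Control, 60.02, 51.3 and 55.9 in si-BAP1, and 59.0, 56.3 and 59.3 in si-MBD5. Both knockdown groups lay above the control arrays and overlapped each other. The differences were 0.18 in si-BAP1 and 0.23 in si-MBD5 (SE 0.057 each). The 2 comparisons use the same control arrays, of which replicate 1 was the lowest. Without si-Control replicate 1 BMP4 no longer passed the whole-table threshold in either comparison. The same held in si-BAP1 with no filter or without si-Control replicate 2, si-BAP1 replicate 1 or si-BAP1 replicate 3, and in si-MBD5 without si-MBD5 replicate 1.

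The feedback inhibitors were lower or near control. SMAD6, which blocks SMAD1 and SMAD5 at the receptor, read 145, 160.0 and 163 in si-Control, 137, 151 and 151 in si-BAP1, and 134, 141 and 113 in si-MBD5. Its si-MBD5 arrays lay below control, with a difference of -0.24 (SE 0.069), and the si-BAP1 difference of -0.08 came from overlapping arrays. The other 2 SMAD6 probe sets gave -0.02 and 0.01 in si-MBD5, so the lower SMAD6 signal rested on 1 of 3 probe sets. It no longer passed the whole-table threshold without si-Control replicate 2 or 3, or si-MBD5 replicate 1 or 3.

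SMAD7, which acts on both the BMP and TGF-beta arms, read 137, 130.1 and 132 in si-Control, 113, 129 and 119 in si-BAP1, and 118, 132 and 120.4 in si-MBD5. The si-BAP1 arrays lay below control by a small margin and the si-MBD5 arrays overlapped it. The differences were -0.13 and -0.10 (SE 0.054), and SMAD7 passed the whole-table threshold in si-BAP1 only under quantile normalization or without si-BAP1 replicate 2. BAMBI, a receptor-like protein with no kinase domain, read 96.3, 94.4 and 97.8, then 97.1, 106 and 96.3, then 93.4, 95.3 and 96.3. Its groups overlapped, with differences of 0.05 and -0.01 (SE 0.046).

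**Figure D2:**
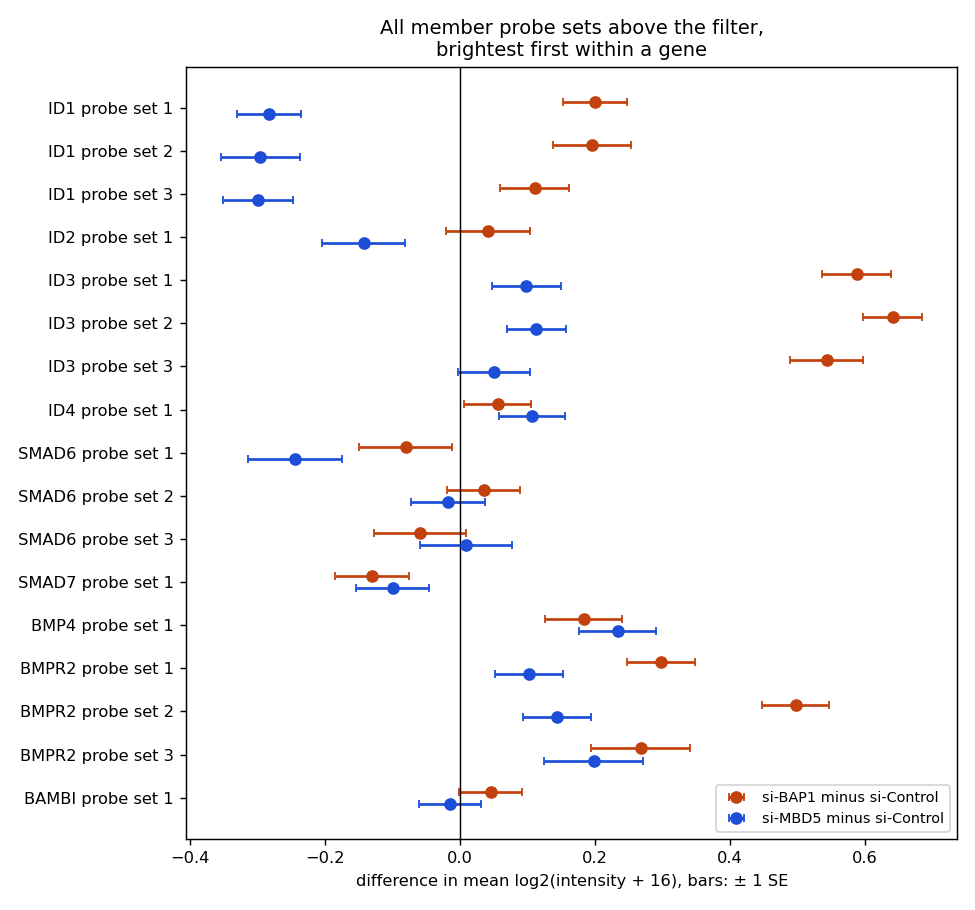
Difference of mean log2(intensity + 16) from si-Control (horizontal axis) for the 17 probe sets of the 9 genes above the filter, in si-BAP1 and si-MBD5; bars are ± SE of the limma fit. The 3 ID3 probe sets lie at 0.54 to 0.64 in si-BAP1, and the 3 ID1 probe sets lie near -0.30 in si-MBD5.

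Set against the whole table, where 23.5% of 12431 genes passed an adjusted p of 0.05 in si-BAP1 against control (12.3% higher, 11.1% lower), 4 of the 9 genes passed, all higher: ID1, ID3, BMP4 and BMPR2. Arrays of the groups did not overlap for 5 of 9, against 37.5% of all genes. In si-MBD5 against control 16.3% of genes passed (7.29% higher, 8.99% lower), and of the 9 BMP4 was higher and ID1 and SMAD6 lower, with 3 not overlapping against 30.4% of all genes. Directly between the knockdowns 9.97% of genes passed (5.75% higher in si-BAP1, 4.22% lower), with ID1, ID3 and BMPR2 higher in si-BAP1, and 4 of 9 not overlapping against 25%. Median differences over the 9 were 0.06, -0.01 and 0.16, against medians near 0 over all genes. Because the list was made with such results known, nothing is read from these counts. By probe set, 9 of 17 were higher and 0 lower in si-BAP1, where 20.5% of all probe sets passed (11.6% higher, 8.88% lower), and 10 did not overlap, against 35.8% of all. In si-MBD5 1 was higher and 4 were lower, where 12.9% passed (6.09% higher, 6.8% lower), and 8 did not overlap, against 28.1%. Between the knockdowns 8 were higher in si-BAP1 and 0 lower, where 7.82% passed (4.66% higher, 3.16% lower), and 9 did not overlap, against 23.4%.

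The genes whose log2 values followed each of 5 members most closely over the 9 arrays were found as a description, with no test. For ID1 they were CMTR1, EHD1 and CLINT1 (r = 0.985, 0.985 and 0.984), and for ID2 FAAP24, PTPMT1 and UTP23 (0.976, 0.974 and 0.969). ID3 was followed by H3C4, SV2B and CASP9 (0.983, 0.983 and 0.982), of which SV2B differed by 1.01 in si-BAP1, more than ID3 itself. For SMAD6 they were PRKAR1A, SLC30A7 and TMEM43 (0.985, 0.978 and 0.976), and for SMAD7 PIP4K2A, BHLHE41 and JRKL (0.957, 0.943 and 0.943). None of these 15 genes is a member, and only BHLHE41 is in the pathway lists.

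The rest of the pathway was followed through lists of 117 other genes, of which 86 could be tested. In si-BAP1 11 rose and 12 fell (26.7%, against 23.5% of all genes), and in si-MBD5 5 rose and 11 fell (18.6%, against 16.3%). Those shares against control lie near those of the whole table. Directly between the knockdowns 9 were higher and 6 lower in si-BAP1. That share, 17.4%, lies above the 9.97% of all genes, and what lies behind it was not tested. The median difference of the 86 genes was -0.01 in si-BAP1 and 0.01 in si-MBD5. In the paragraphs that follow, p-values are limma's, Benjamini-Hochberg adjusted over all genes tested. Both knockdowns are compared with the same si-Control arrays, so a gene that moved alike in both does not give independent results. These lists, like the 9 genes, were made with earlier results of these arrays known, so the p-values place a gene in the whole table and are no independent evidence about the lists.

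Of 7 ligands tested, BMP2 rose in si-BAP1 and BMP6 fell in si-MBD5. BMP2, a ligand close to BMP4, read 637 ± 2.57 in control, 923 ± 51.6 in si-BAP1 and 643 ± 23.4 in si-MBD5. Its si-BAP1 difference was 0.52 (SE 0.043, limma adjusted p = 1.68e-06), that in si-MBD5 0.01 (limma adjusted p = 0.883), and the knockdowns themselves differed by 0.51 (limma adjusted p = 8.1e-06). BMP6, which drives hepcidin in liver, fell by 0.20 in si-MBD5 (limma adjusted p = 0.00662), but its other probe set did not pass. Of the 7 other receptors and co-receptors tested, ACVR1, the type I receptor ALK2, fell in si-BAP1 (-0.28, limma adjusted p = 0.0385), a call that ended under 9 of 18 alternatives, and the other 6 did not pass in either knockdown against control. None of SMAD1, SMAD4 and SMAD5, the transducers themselves, passed in either knockdown (SMAD1 -0.19 and -0.10; SMAD5 0.01 and 0.07; SMAD4 0.07 and 0.07). SMAD1 did pass in si-BAP1 under 3 of 18 alternatives: -0.20 with quantile normalization, -0.17 over the mean of probe sets, and -0.29 without si-Control replicate 1. Without that array it also passed in si-MBD5 (-0.20). SMAD9 lay below the filter and BMPR1A is not analysed here.

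Of 9 secreted antagonists tested, FST, which binds activins and some BMPs, fell in both knockdowns (489 ± 34.1 in control, 412 ± 12.3 and 411 ± 30.9; limma adjusted p = 0.00882 and 0.0111). FSTL1, a follistatin-like glycoprotein, fell by 0.30 in si-BAP1 (limma adjusted p = 1.58e-05) and rose by 0.11 in si-MBD5 (limma adjusted p = 0.0293), a rise that turned to -0.01 when probe sets that can bind several transcripts were left out. Noggin and chordin, the classical antagonists NOG and CHRD, passed in neither. Of 24 intracellular regulators tested, 2 rose and 4 fell in si-BAP1, and 0 rose and 3 fell in si-MBD5. MAP3K7 (TAK1), the kinase of the SMAD-independent branch, fell most: 282 ± 2.58 in control, 202 ± 6.35 in si-BAP1 (-0.45, limma adjusted p = 4.7e-06) and 253 ± 9.81 in si-MBD5 (-0.15, limma adjusted p = 0.0278). All 6 MAP3K7 probe sets passed in si-BAP1, but the si-MBD5 fall rested on 1 of them: the other 5 gave -0.0089 to -0.088 and did not pass, and the mean of all 6 gave -0.07. The corepressors TGIF2 and TGIF1 each fell in 1 knockdown, TGIF2 in si-BAP1 (-0.27, limma adjusted p = 0.000305) and TGIF1 in si-MBD5 (-0.25, limma adjusted p = 0.0051). TOB2, an antiproliferative protein, rose in si-BAP1 (0.28, limma adjusted p = 0.00706), as did the corepressor SKI (0.13, limma adjusted p = 0.0442), whose call held under 8 of 18 alternatives. The phosphatase CTDSP2 fell in si-BAP1 (-0.25, limma adjusted p = 0.000359), a difference of -0.03 over the mean of its probe sets. The SMAD4 ubiquitin ligase TRIM33 fell in both knockdowns (-0.15 and -0.15, limma adjusted p = 0.0174 and 0.0299), calls that ended over the mean of its probe sets.

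Among 10 other BMP target genes tested, SNAI2, a repressor of epithelial genes, rose in both knockdowns, from 151 ± 6.18 to 228 ± 9.11 in si-BAP1 (0.55, limma adjusted p = 3.06e-06) and 175 ± 7.73 in si-MBD5 (0.20, limma adjusted p = 0.0133). HEY1, a Notch and BMP target, rose in si-BAP1 (0.28, limma adjusted p = 0.0179), as did the homeobox gene MSX1 (0.15, limma adjusted p = 0.0161), while HES1 fell in both (-0.18 and -0.18, limma adjusted p = 0.00833 and 0.0119). Both HES1 calls ended over the mean of its probe sets (-0.09 and -0.08). JUNB, an AP-1 subunit, fell in si-MBD5 (-0.15, limma adjusted p = 0.0373). The TGF-beta and activin arm, the sister pathway, had 3 risers and 2 fallers of 12 in si-BAP1, and 2 and 3 in si-MBD5. LTBP1, which holds latent TGF-beta in the matrix, rose in both (40.8 ± 5.04 to 66.7 ± 4.67 and 65.3 ± 3.33, limma adjusted p = 5.44e-05 and 0.000189). TGFBR3, the betaglycan co-receptor, rose in si-BAP1 (0.34, limma adjusted p = 6.67e-05), but its dimmer probe sets gave 0.25 and 0.02, the latter not passing. In si-MBD5 the TGFBR3 probe set at 0.25 passed as lower (-0.17, limma adjusted p = 0.0272 over all probe sets). The receptor ACVR1B fell in both (-0.35 and -0.18, limma adjusted p = 6.13e-05 and 0.0128). Its other probe sets gave -0.05 and -0.10 in si-MBD5 and did not pass, nor did the mean of its probe sets (-0.11). The transducer SMAD3 also fell in both (-0.22 and -0.20, limma adjusted p = 0.0012 and 0.00459), although in si-BAP1 the mean of its probe sets gave -0.08 and did not pass. In si-MBD5 that mean passed, but the other SMAD3 probe sets gave -0.13 and -0.05 and did not. INHBB, an activin subunit, fell in si-MBD5 (-0.23, limma adjusted p = 0.00248). TGFBR1 rose in both (0.25 and 0.41), calls that ended when probe sets that can bind several transcripts were left out (differences of 0.02 and 0.12).

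TCF3, which encodes E12 and E47, the main partners of ID proteins, had the largest difference of all 86: 348 ± 7.83 in control, 590 ± 21.4 in si-BAP1 and 513 ± 23.9 in si-MBD5. It rose by 0.74 (SE 0.043, limma adjusted p = 1.72e-07) and 0.54 (limma adjusted p = 5.5e-06), and all 4 TCF3 probe sets passed in both. ID1, by contrast, was higher in si-BAP1 and lower in si-MBD5. The related TCF4 and TCF12 passed in neither knockdown on their brightest probe sets (TCF4 0.03 and -0.01; TCF12 0.05 and -0.07). A pair of dimmer TCF12 probe sets passed in si-BAP1 (0.24 and 0.21, limma adjusted p = 0.0172 and 0.0345 over all probe sets). Of the 16 bHLH and related genes tested, 3 rose and 3 fell in si-BAP1, MYC among the rises (0.25, limma adjusted p = 0.00518) and ETS1 and the clock-linked repressor BHLHE41 among the falls (-0.28 and -0.18, limma adjusted p = 0.00111 and 0.0214). The BHLHE41 call held under 11 of 18 alternatives, with -0.10 over the mean of its probe sets and -0.03 without those that can bind several transcripts. It also ended without si-BAP1 replicate 1 or 3 and without each si-Control array in turn.

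Of these pathway calls, 13 of 23 in si-BAP1 and 6 of 16 in si-MBD5 held under every alternative tried. In si-BAP1 they were BMP2, FST, FSTL1, TOB2, TGIF2, MAP3K7, SNAI2, TGFBR3, ACVR1B, LTBP1, TCF3, MYC and ETS1. In si-MBD5 they were BMP6, TGIF1, SMAD3, INHBB, LTBP1 and TCF3. Not every probe set of these genes passed, however. In si-BAP1 another probe set of FST (-0.06), TGIF2 (-0.08), TGFBR3 (0.02), ACVR1B (-0.11) and ETS1 (-0.20) did not. In si-MBD5 the same held for BMP6 (-0.11) and SMAD3 (-0.13 and -0.05). Leaving out si-Control replicate 1 ended the si-MBD5 calls of FST, FSTL1, MAP3K7, SNAI2, ACVR1B and TRIM33. Leaving out si-Control replicate 2 ended those of FST, FSTL1, MAP3K7, TRIM33, HES1, JUNB and ETS1.

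**Figure D3:**
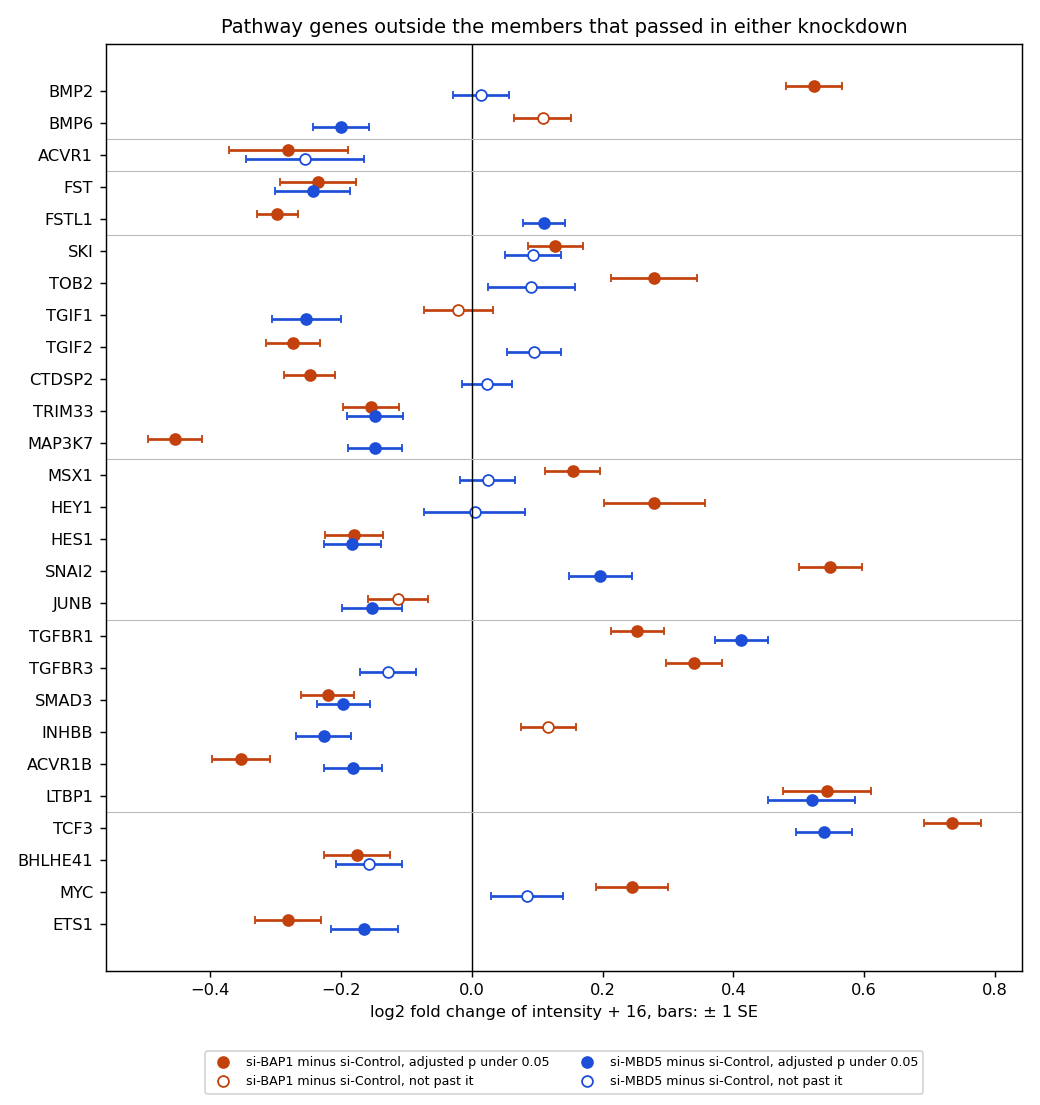
Difference of mean log2(intensity + 16) from si-Control for the 27 other pathway genes that passed in either knockdown, with ± SE; filled points have an adjusted p under 0.05. TCF3, SNAI2, LTBP1 and BMP2 lie highest in si-BAP1 and MAP3K7 lowest, and BMP2 lies near 0 in si-MBD5.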

How the data were processed

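RNA of 9 HCCC-9810 samples (3 each of si-BAP1, si-MBD5 and si-Control) was measured on Affymetrix arrays from 6 ug of total RNA, per the labels' protocols. The authors deposited linear intensity per probe set, from MAS5 (version not given in the sources used here) per the submitters' processing notes. Whether and how arrays were scaled is not stated; their medians were near-equal, and the values were used as deposited.

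Of 49395 probe sets, 102 were controls, 44988 had 1 gene symbol, 1832 several and 2473 none. Of the single symbols, 44961 were matched to RefSeq and took its symbol, whether changed or not, and 27 were kept as annotated. The log2 of intensity + 16 was computed here from the deposited intensity. Probe sets with a mean above the 40th percentile (25.5) were kept, with the brightest probe set standing for its gene (12431 genes; 27188 probe sets). All 9 arrays entered 1 limma 3.58.1 fit (R 4.3.3) with 3 group means, 6 residual degrees of freedom and an intensity trend; p-values were Benjamini-Hochberg adjusted over the whole table with a threshold of 0.05. The procedure was tested on simulated data. It found 0 to 2% of genes changed by 0.1 on the log2 scale, 56 to 62% of those changed by 0.25 and 94 to 98% of those changed by 0.5. Few genes were changed there, unlike in these data, so the shares do not carry over directly. A gene that did not pass may still have changed by a small amount. The number of arrays limits the precision; the median SE was 0.051 log2. Figures used matplotlib 3.10.9 in Python 3.11.15.

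The members and lists were chosen with earlier results of these data known. Named were all members, every pathway gene past the threshold in either knockdown, a fixed set of receptors, SMADs and E proteins, and the 3 genes most like each of ID1, ID2, ID3, SMAD6 and SMAD7. Alternatives were constants of 1 and 64, quantile normalization, no filter or one at the 60th percentile, probe set means, leaving out _x_at and _s_at probe sets, a replicate block, no intensity trend, and leaving out each array. Columns of other samples numbered 0. Probe sets with several symbols were not named.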

Additional observations from a re-analysis of the deposited data

How the results depend on the processing

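Of 210 counts of genes or probe sets recomputed under the alternatives, 204 stayed within 1.5 times the reported count, and the 6 that did not each came from leaving out 1 array. Without si-Control replicate 2, si-MBD5 against si-Control gave 1265 genes (587 higher, 678 lower) in place of 2024, and 9 pathway genes in place of 16. Without si-MBD5 replicate 1 that comparison gave 1 of the 9 genes in place of 3 and 3 member probe sets in place of 5, and si-BAP1 against si-MBD5 gave 720 genes in place of 1239. Without si-BAP1 replicate 3 the latter gave 755. Over all 9 arrays left out in turn, counts ran from 2244 to 3172, 1265 to 1971 and 720 to 1323 genes in si-BAP1 and si-MBD5, each against control, and between the knockdowns. For the 9 genes they ran from 3 to 5, 1 to 3 and 2 to 4, for pathway genes from 19 to 23, 9 to 17 and 11 to 18, and for member probe sets from 6 to 9, 3 to 5 and 7 to 9. ID1 in all 3 comparisons, ID3 against both groups, and BMPR2 in si-BAP1 against si-Control passed in all 18 alternatives. BMPR2 in si-BAP1 against si-MBD5 passed in 15, and lost its call without si-BAP1 replicate 2, si-BAP1 replicate 3 or si-MBD5 replicate 1. BMP4 passed in 12 of 17 in si-BAP1 and 15 of 17 in si-MBD5. SMAD6 passed in 13 of 18 in si-MBD5, with -0.08 for the mean of its probe sets. Quantile normalization turned the split between the knockdowns from 715 higher and 524 lower to 607 and 714; the cause was not tested. FSTL1 in si-MBD5 reversed to -0.014 (limma adjusted p = 0.894) without _x_at and _s_at probe sets. Deviations from the group means correlated at -0.433 to 0.480 in the 9 pairs of same-numbered arrays, with 3 above 0.1. Differently numbered arrays of different groups gave -0.556 to 0.470, so the same-numbered pairs did not stand apart. Because deviations cancel within a group of 3 arrays, the pairs are not independent. These correlations therefore do not settle whether the numbers pair the samples. With the replicate number as a block, 2849, 1865 and 1114 genes and 4, 3 and 3 of the 9 genes passed.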
